A study of Mus musculus with 10 samples.

Results

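The genes described here encode the extracellular metalloproteases of the ADAM, ADAMTS and matrix metalloproteinase (MMP) families, the ADAMTS-like proteins (ADAMTSL) and the tissue inhibitors of metalloproteinases (TIMPs). They are the genes whose symbol is Adam, Adamts, Adamtsl, Mmp or Timp followed by a number, without pseudogenes and without Adam7, and number 84 of the 56691 genes in the deposited table. Of these, 21 are ADAM genes used only or mainly in testis and are given apart, which leaves 63. Visceral fat of male mice, aged 10 weeks and fed chow for 8 weeks, gave poly(A) RNA for sequencing, with 1 library per mouse. The aADM2-tg group (tg1 to tg5) is a transgenic line described as overexpressing adrenomedullin 2 specifically in fat, and the WT group (WT1 to WT5) carries the wild-type genotype. The comparison asks how fat RNA differs between these genotypes. The promoter of the transgene, the strain and whether littermates were used are not given in the labels.

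ADAM proteins sit in the plasma membrane and cut the outer parts of other membrane proteins, which releases growth factors, cytokines and receptor fragments. ADAMTS enzymes and MMPs act mostly in the matrix, where they trim procollagens, cut proteoglycans such as versican and degrade collagen, gelatin and elastin, and TIMPs block the active site of these enzymes. In fat, growth of adipocytes goes with remodelling of the matrix around them, and much of this protease RNA is made by stromal cells rather than by the adipocytes themselves.

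The libraries held 16030435 to 18214504 counted reads in aADM2-tg and 16921357 to 18064306 in WT, and the limit set by a count of 0 (taken as 3 counts) equals 0.165 to 0.187 counts per 1e6 counted reads (CPM). Which library is transgenic rests on the sample labels, since of the table's 2 header lines the first swaps the groups, and Adm2, with 2 counts in WT3 and 0 in the other 9 libraries, does not tell the groups apart. The labels call the cells mature adipocytes, but markers of other cells were present. Summed fibroblast and progenitor markers were at 2136 to 3136 CPM in aADM2-tg and 4510.5 to 7854 CPM in WT, summed macrophage markers at 471 to 835 CPM in aADM2-tg and 927 to 1117 CPM in WT, and summed adipocyte markers at 29244 to 39268 CPM in aADM2-tg and 24604 to 29336 CPM in WT. RNA of duct and ciliated epithelium was high in tg2 (573 CPM over 22 markers) and in WT2 to WT5 (178 to 419 CPM), and low in tg1, tg3, tg4, tg5 and WT1 (22.0 to 35.9 CPM). In RNA from whole tissue, fewer cells of a type and less RNA per cell cannot be told apart.

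More of these genes were lower than higher in aADM2-tg. Of the 84, 56 passed the expression filter and were tested, and a gene is called here when its adjusted p was under 0.05 (edgeR's quasi-likelihood test, Benjamini-Hochberg over 16591 genes). Lower were 17 of the 56 (30.4%), against 12.7% of all tested genes, and higher were 3 (5.36%), against 13.8% of all tested genes. The 3 that rose were the sheddase gene Adam15 and the inhibitor genes Timp3 and Timp4. The 17 that fell were Adam9, Adam10, Adam12, Adam19, Adam23, Adamts2, Adamts5, Adamts7, Adamts12, Adamts16, Adamts17, Adamtsl1, Mmp2, Mmp13 and Mmp14, and the testis genes Adam5 and Adam32. The median log2 change was -0.289 over the 56 tested members and 0.0181 over all tested genes. The log2 values given are changes fitted by edgeR, aADM2-tg over WT, with n = 5 libraries in each group. A change of at least 2-fold was seen in 9 members that fell and in 0 that rose, against 2.94% and 1.33% of all tested genes. In 14 members (25%) every aADM2-tg library was below every WT library, against 9.75% of all tested genes, and in 3 (5.36%) every aADM2-tg library was above, against 7.33%. These counts include the testis genes. Outside the testis class, 15 of 52 tested members were lower (28.8%) and 3 higher (5.77%), and 7 fell at least 2-fold. In 13 of the 52 (25%) every aADM2-tg library was below every WT library. Without tg2, 5 of 57 tested members were higher and 22 lower, against 18.2% and 21.6% of all genes then tested, each a larger share than with every library. The added calls were Adamts10 and Adamtsl2 (higher) and Mmp7, Adam11, Adamts20, Adam3 and Adamts6 (lower). With tg2 left out, all transgenic libraries are low in duct RNA while WT2 to WT5 are high. The part of duct RNA in these added calls was not tested. Counts by class given below stand beside the same 12.7% lower and 13.8% higher of all tested genes. For 18 members another gene overlaps whose counts reach at least 10% of theirs, and several of these are named beside the values.

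**Figure D1:**
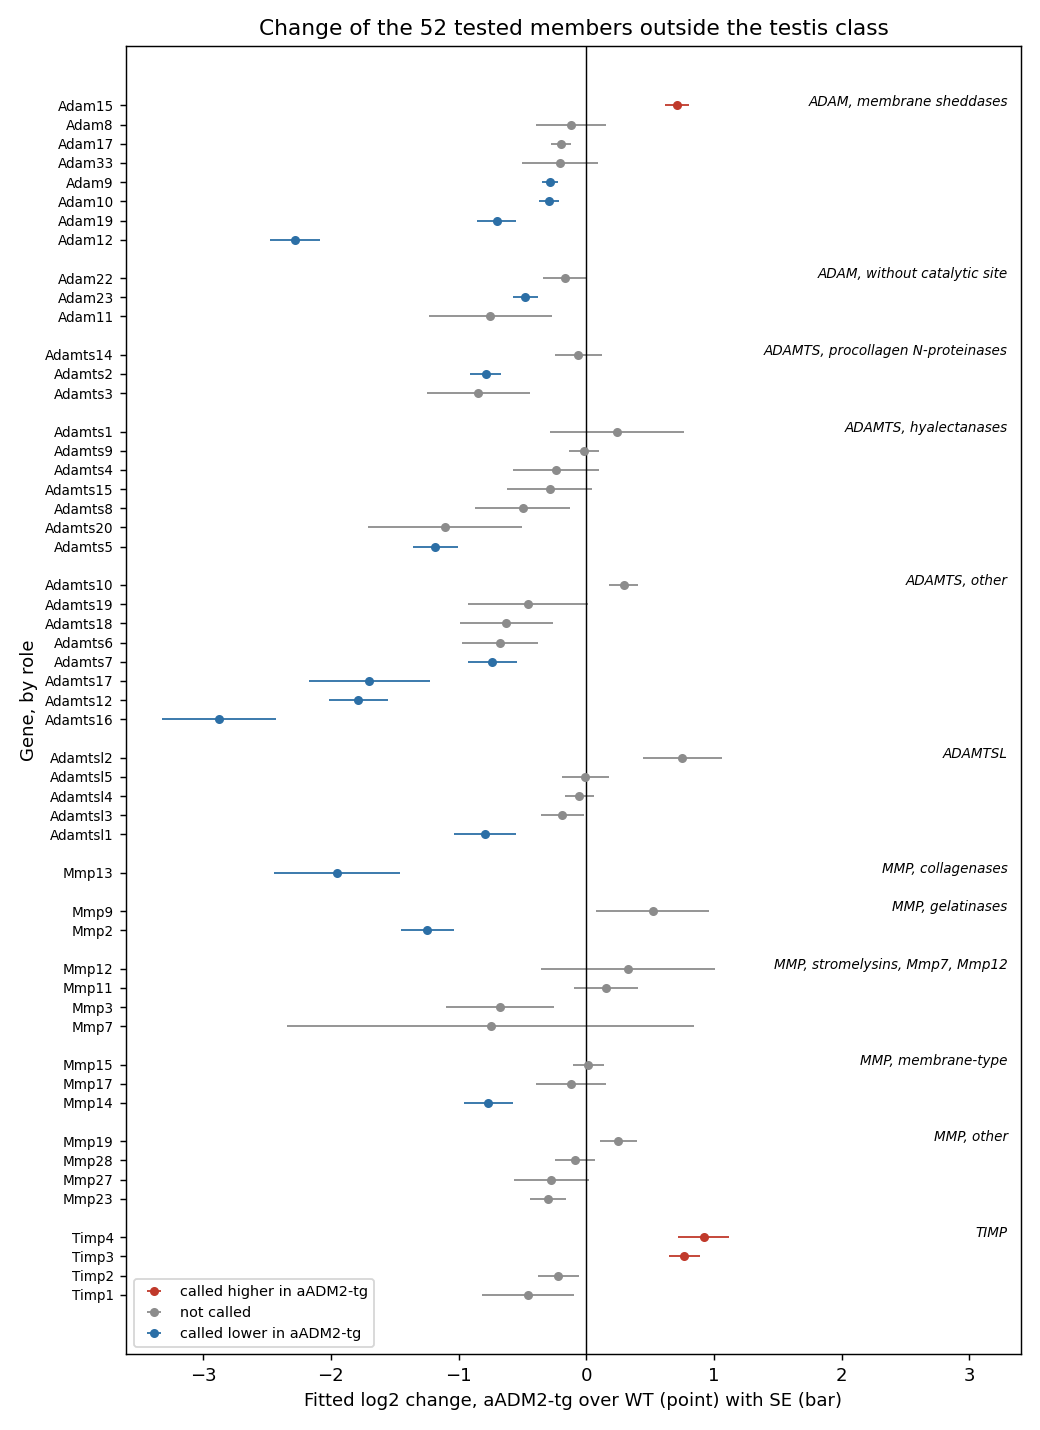
Fitted log2 change of aADM2-tg over WT (horizontal axis, point with its SE as a bar) for the 52 tested members outside the testis class, one gene per line and grouped by role. The 3 genes called higher in aADM2-tg are red, the 15 called lower are blue and the other 34 are grey; the points called lower reach from -0.28 (Adam9) to -2.87 (Adamts16).

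Per length of transcript, 3 of the 4 inhibitors were the most abundant members. Mean FPKM over all 10 libraries, computed from the counts and the exonic lengths in the file, was 97.9 for Timp2, 54.5 for Timp4 and 47.1 for Timp3. The most abundant proteases were Adamts5 (42.9 FPKM), Adam9 (38.4 FPKM), Mmp7 (32.0 FPKM), Adamts1 (28.5 FPKM), Adam15 (26.4 FPKM) and Adam10 (20.6 FPKM), and the level of Mmp7 came from 5 libraries alone, as given below. Of the 63 members outside the testis class 35 reached a mean of 1 FPKM and 14 a mean of 10 FPKM. Mmp1a, Mmp1b and Mmp20 had 0 counts in every library. Over all 10 libraries, the classical fibroblast proteases Mmp2 (12.1 FPKM) and Mmp14 (9.08 FPKM) stood below Mmp19 (15.5 FPKM), a soluble MMP, and Mmp28 (12.5 FPKM), the gene of epilysin. For Mmp2 this order differed by genotype. In WT its mean was 17.2 FPKM, above Mmp19 (14.5 FPKM) and Mmp28 (13.2 FPKM). In aADM2-tg it was 7.03 FPKM, below Mmp19 (16.5 FPKM) and Mmp28 (11.9 FPKM).

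**Figure D2:**
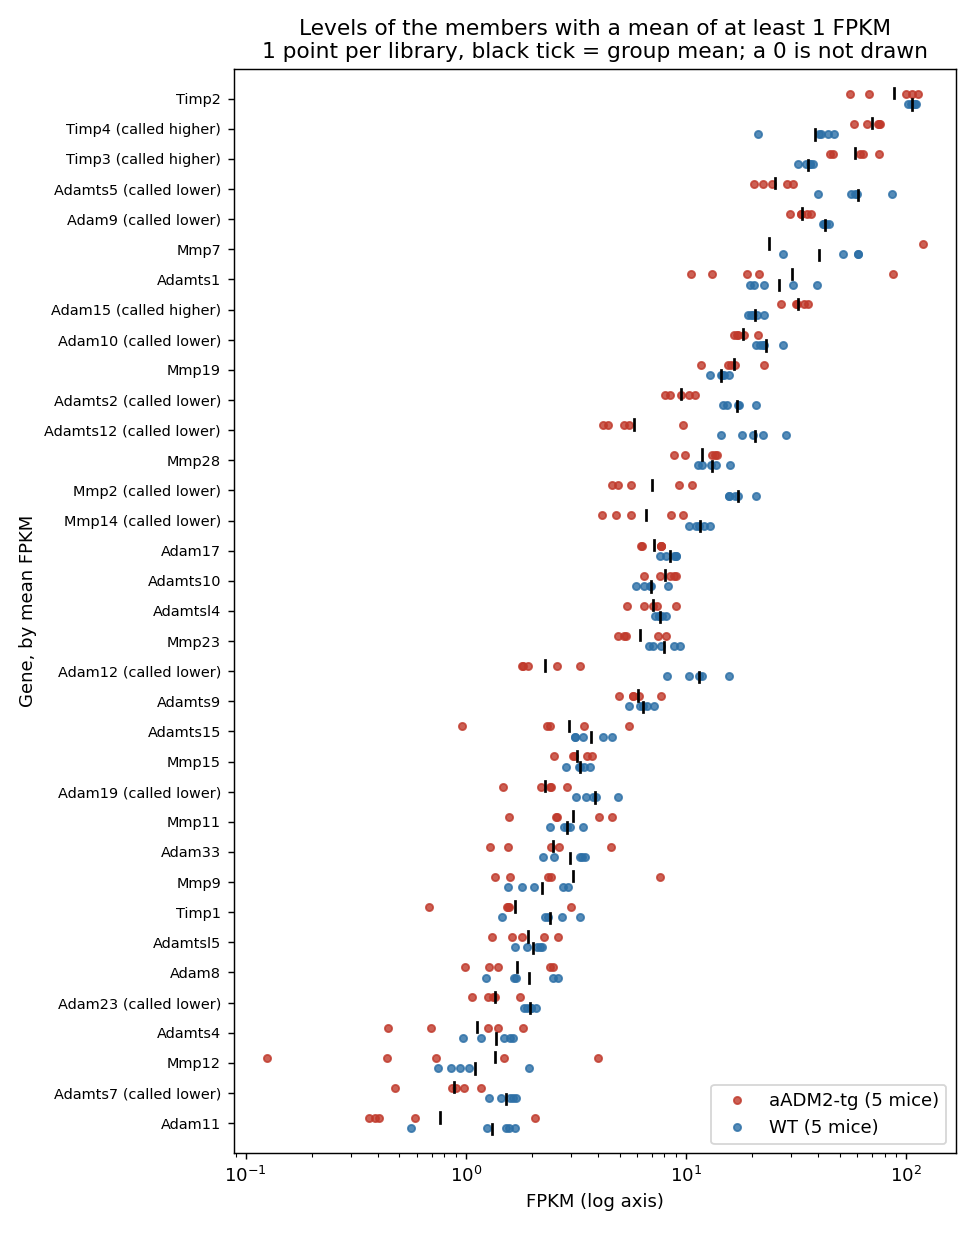
FPKM on a log axis for the 35 members outside the testis class with a mean of at least 1 FPKM, one point per library (aADM2-tg red, WT blue) and a black tick at each group mean. Timp2 leads at 97.9 FPKM over all libraries, the WT points of Timp2 lie close together while the aADM2-tg points spread, and the groups of Adam12 and Adamts12 do not overlap.

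Among the ADAM sheddases, 1 of 8 tested genes rose, 4 fell and 3 did not pass the test. Adam12 (ENSMUSG00000054555, chromosome 7, 133484928 to 133833875, minus strand; coordinates as in the file, whose build is not stated), which encodes meltrin alpha, a protease of mesenchymal and muscle precursor cells, had 19.2, 34.8, 19.0, 27.3 and 20.3 CPM in tg1 to tg5, against 125, 166, 86.9, 122 and 109.6 CPM in WT1 to WT5. Every aADM2-tg library lay below every WT library, and tg2 was the highest of the transgenic group. Adam12 fell 4.86-fold (log2 -2.28, SE 0.20, adjusted p = 0.000405). Its relative Adam19, the gene of meltrin beta, which sheds neuregulin, had 17.2, 17.4, 10.5, 15.6 and 20.6 CPM in tg1 to tg5, against 25.0, 35.2, 22.5, 27 and 27.7 CPM in WT1 to WT5. The groups did not overlap, and Adam19 fell by a smaller amount than Adam12 (log2 -0.70, SE 0.15, adjusted p = 0.00887; the difference between the 2 changes was not tested).

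Adam15 (ENSMUSG00000028041, chromosome 3, 89245849 to 89257303, minus strand), a transmembrane ADAM with an active protease domain, had 196, 166, 194, 212 and 221 CPM in tg1 to tg5, against 117, 121, 129.5, 124 and 139.9 CPM in WT1 to WT5. It was the only ADAM gene that rose (log2 0.71, SE 0.0936, adjusted p = 0.00126), and the lowest transgenic library, tg2, was still above the highest WT library. Adam9, the gene of meltrin gamma, had 147, 153, 137, 122 and 138 CPM in tg1 to tg5, against 175, 178, 174, 183 and 175 CPM in WT1 to WT5. The coefficient of variation was 8.31% in aADM2-tg and 2.18% in WT, and Adam9 fell 1.22-fold (log2 -0.28, SE 0.0612, adjusted p = 0.0087).

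Adam10 and Adam17 are the sheddases with the widest known range of substrates. Adam10, which cuts Notch receptors, had 84.0, 105, 81.3, 90.5 and 84.5 CPM in tg1 to tg5, against 111, 136, 103, 110.2 and 107 CPM in WT1 to WT5. It fell by 0.29 on the log2 scale (SE 0.0792, adjusted p = 0.0219), with tg2 above WT3, and its call ended once the duct score entered the fit (adjusted p = 0.0715). Adam17, which releases tumour necrosis factor and ligands of the EGF receptor, had 54.9, 55.2, 44.7, 45.4 and 55.3 CPM in tg1 to tg5, against 64.4, 64.4, 54.4, 58.2 and 63.2 CPM in WT1 to WT5. The groups overlapped and it was not called (log2 -0.20, SE 0.081, adjusted p = 0.0945), and reads of Iah1 on the opposite strand, more than those of Adam17, may be part of its count. Of the others, Adam8, a sheddase of myeloid cells whose gene overlaps Gm16201 (adjusted p = 0.765), and Adam33, one of smooth muscle and fibroblasts (adjusted p = 0.634), did not pass the test, and Adam28 had at most 1 count in any library. Summed over the class, sheddase RNA was at 501 to 564 CPM in aADM2-tg and 600.2 to 721 CPM in WT.

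The ADAMs without a catalytic site are adhesion proteins known best as receptors of the LGI proteins in brain, and 1 of 3 fell. Adam23 had 22.6, 31.5, 19.0, 24.4 and 23.9 CPM in tg1 to tg5, against 35.6, 35.5, 37.3, 32.8 and 34.0 CPM in WT1 to WT5. The groups did not overlap (log2 -0.48, SE 0.0952, adjusted p = 0.00623). Adam23 has a long exonic length (17907 bases), and with an offset for gene length its change was -0.14 and no longer called (adjusted p = 0.203). With that offset 15 members were lower and 4 higher, against 9.67% and 13.1% of all tested genes (22.7% in either direction). Adam22 was at 4.93 to 9.94 CPM in aADM2-tg, against 5.81 to 8.38 CPM in WT (adjusted p = 0.501). Adam11 was at 2.06 to 11.7 CPM in aADM2-tg, against 3.21 to 9.46 CPM in WT (adjusted p = 0.269), with its highest transgenic value in tg2 and its lowest WT value in WT1, which differ from the rest of their groups in duct RNA.

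Of the ADAMTS genes, 6 of 18 tested fell and 0 rose in the main edgeR fit (all 10 libraries, genotype as the only term) or in DESeq2 (1 was higher at an unadjusted p under 0.05). The procollagen N-proteinases, which remove the N-propeptides of fibrillar procollagens, were led by Adamts2, with 96.8, 89.1, 103, 75.5 and 78.9 CPM in tg1 to tg5, against 161, 195, 138, 144 and 163 CPM in WT1 to WT5. All transgenic libraries lay below all WT libraries (log2 -0.79, SE 0.12, adjusted p = 0.00233). Adamts14 (adjusted p = 0.825) and Adamts3 (adjusted p = 0.141) did not pass the test.

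The hyalectanases cut versican and aggrecan, and 1 of 7 fell (14.3%), a share near the 12.7% of all tested genes. Adamts5 (ENSMUSG00000022894, chromosome 16, 85653061 to 85698716, minus strand), the most abundant ADAMTS gene per length over all 10 libraries (25.4 FPKM in aADM2-tg and 60.3 FPKM in WT), had 221, 311, 266, 241 and 333 CPM in tg1 to tg5, against 428, 610.2, 648, 932 and 635 CPM in WT1 to WT5. The highest transgenic library, tg5, was below the lowest WT library, WT1 (log2 -1.18, SE 0.17, adjusted p = 0.00183). Adamts1, its neighbour on chromosome 16 and the same strand, had 69.7, 101, 114, 55.7 and 462 CPM in tg1 to tg5, against 108, 104, 164, 209.9 and 120.5 CPM in WT1 to WT5. The groups overlapped, and tg5 stood far above every other library. The mean of Adamts1 was 30.3 FPKM in aADM2-tg, above that of Adamts5 there, and 26.6 FPKM in WT. Adamts1 was not called in either direction (log2 0.24, SE 0.52, adjusted p = 0.753), and without tg5 its fitted change was -0.65 (adjusted p = 0.0983). Adamts4, an aggrecanase, had 3.36, 6.77, 6.05, 2.14 and 8.76 CPM in tg1 to tg5, against 7.64, 7.14, 4.67, 5.64 and 7.92 CPM in WT1 to WT5. It was not called (log2 -0.24, SE 0.34, adjusted p = 0.629), with overlapping groups. Adamts9, Adamts15, Adamts8 and Adamts20 did not pass the test, with adjusted p from 0.195 (Adamts20) to 0.926 (Adamts9), and Adamts8 and Adamts9 overlap other genes on the opposite strand.

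The remaining ADAMTS genes held the deepest fall outside the testis class, and 4 of 8 tested fell. Adamts12 (ENSMUSG00000047497, chromosome 15, 11064876 to 11349317, plus strand), which cuts cartilage oligomeric matrix protein in vitro, had 48.3, 106, 45.7, 60.3 and 57.2 CPM in tg1 to tg5, against 221, 311, 157, 196 and 244 CPM in WT1 to WT5. The groups did not overlap and it fell 3.44-fold (log2 -1.78, SE 0.23, adjusted p = 0.00126). Adamts16 (ENSMUSG00000049538, chromosome 13, 70875921 to 70989930, minus strand), a low-abundance protease known from kidney and gonad, had 1.20, 0.610, 0.312, 0.384 and 0.536 CPM in tg1 to tg5, against 5.43, 6.47, 1.54, 5.64 and 4.27 CPM in WT1 to WT5. The highest transgenic value, in tg1, was below the lowest WT value, in WT3 (log2 -2.87, SE 0.45, adjusted p = 0.00231).

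Adamts7, the closest relative of Adamts12, had 6.18, 5.43, 2.99, 5.65 and 7.39 CPM in tg1 to tg5, against 8.03, 10.6, 9.04, 10.3 and 9.94 CPM in WT1 to WT5. It fell by 0.73 on the log2 scale (SE 0.19, adjusted p = 0.0192), the call ended with the duct score as a term (adjusted p = 0.0549), and Tbc1d2b on the opposite strand holds more counts than Adamts7. Adamts17, linked to fibrillin microfibrils, had 0.30, 0.610, 0.187, 0.220 and 0.953 CPM in tg1 to tg5, against 1.11, 2.64, 0.709, 1.58 and 1.69 CPM in WT1 to WT5. The groups overlapped. Its call (log2 -1.70, SE 0.47, adjusted p = 0.0238) ended with the duct score as a term (adjusted p = 0.078) and without any one of tg1, tg3, tg4, WT2 or WT5 (adjusted p 0.0526 to 0.0644). Adamts6 (adjusted p = 0.116) and Adamts10 (adjusted p = 0.0827), which also act on fibrillin microfibrils, and Adamts18 (adjusted p = 0.223) and Adamts19 (adjusted p = 0.495) did not pass the test. With the gene length offset in edgeR, Adamts10 was called higher (log2 0.45, adjusted p = 0.0289). With the replicate number as a block in edgeR, Adamts6 was called lower (log2 -0.75, adjusted p = 0.038). Both were also called with voom and without tg2, and Adamts10 without WT5. Adamts13, which cuts von Willebrand factor, had at most 2 counts in a library.

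ADAMTS-like proteins carry the ancillary domains of ADAMTS enzymes without the protease, and 1 of 5 fell. Adamtsl1, the gene of punctin, had 10.5, 11.2, 7.11, 3.73 and 9.12 CPM in tg1 to tg5, against 13.6, 19.9, 13.1, 13.9 and 14.7 CPM in WT1 to WT5. The groups did not overlap (log2 -0.80, SE 0.24, adjusted p = 0.034). The call of Adamtsl1 ended with the gene length offset (adjusted p = 0.112), with the duct score as a term (adjusted p = 0.0958) and without any one of tg3, tg5, WT1, WT2, WT4 or WT5 (adjusted p 0.0529 to 0.0882), and Sh3gl2 overlaps it on the same strand. Adamtsl2, which binds fibrillin 1 and latent TGF-beta binding protein, was at 3.35 to 6.99 CPM in aADM2-tg, against 2.05 to 5.96 CPM in WT, and did not pass the test (log2 0.75, adjusted p = 0.0938). Adamtsl2 was called higher with voom, without tg2, without WT1 and tg2 together, and without WT2, and in no other alternative run. Adamtsl3, Adamtsl4 and Adamtsl5 had adjusted p from 0.432 (Adamtsl3) to 0.977 (Adamtsl5).

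Of the MMP genes, 3 of 14 tested fell, and 0 rose in the main edgeR fit or DESeq2 even at an unadjusted p under 0.05. The gelatinase gene Mmp2 (ENSMUSG00000031740, chromosome 8, 93553919 to 93580048, plus strand), which fibroblasts make as a proenzyme, had 19.0, 31.3, 15.6, 16.5 and 36 CPM in tg1 to tg5, against 56.2, 70.3, 53.0, 58.2 and 52.8 CPM in WT1 to WT5. The highest transgenic value, in tg5, was below the lowest WT value, in WT5 (log2 -1.24, SE 0.21, adjusted p = 0.00313). Mmp14, which encodes the membrane-type MMP that activates pro-MMP2 at the cell surface, had 33.4, 58.1, 28.8, 24.8 and 51.1 CPM in tg1 to tg5, against 68.5, 76.7, 61.5, 72.4 and 66.1 CPM in WT1 to WT5. The groups did not overlap, and tg2 and tg5 were the highest of the transgenic libraries for both genes (log2 -0.77, SE 0.19, adjusted p = 0.0162 for Mmp14). The call of Mmp14 ended with the duct score and gene length together in the model (adjusted p = 0.0519).

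The other gelatinase gene, Mmp9, which neutrophils and macrophages release, had 8.40, 5.61, 4.80, 8.67 and 27.1 CPM in tg1 to tg5, against 10.3, 6.36, 7.21, 5.53 and 9.83 CPM in WT1 to WT5. The groups overlapped and tg5 stood apart (log2 0.52, SE 0.44, adjusted p = 0.408), and without tg5 the fitted change was -0.13 (adjusted p = 0.752). Neutrophil markers were low in both groups, at a sum of 4.67 to 7.92 CPM in aADM2-tg and 5.31 to 11.8 CPM in WT. Of the membrane-type genes, Mmp15 (adjusted p = 0.93) and Mmp17 (adjusted p = 0.774) did not pass the test. Mmp16 was below the expression filter, with 0 to 0.125 CPM in aADM2-tg and 0.169 to 1.06 CPM in WT, and Mmp24 and Mmp25 were below it as well. Mmp19, Mmp23, Mmp27 and Mmp28 were tested and not called, with adjusted p from 0.146 (Mmp23) to 0.71 (Mmp28), and both Mmp19 and Mmp28 overlap genes on the opposite strand.

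A run of 10 MMP genes lies on chromosome 9 between 7272514 and 7699586 in the file's coordinates and holds the collagenases, the stromelysins Mmp3 and Mmp10, matrilysin (Mmp7), metalloelastase (Mmp12), Mmp20 and Mmp27. Of these 10, 5 were tested, 1 fell and 3 had no count at all. Neighbours in it differed in which libraries expressed them. Upstream sequence of 3 of them is shown beside that of Mmp14 and Timp3, which lie elsewhere, because 8 of the 10 cluster genes have a motif near the start that the Mmp14 and Timp3 stretches lack. Each line gives the 250 bases before a RefSeq transcript start (GRCm38.p6, all plus strand, 5′ to 3′), and capitals mark the AP-1 motif TGANTCA, the GC box GGGCGG and the TATA box TATAAA on either strand.
Mmp13 (chr9:7272264-7272513): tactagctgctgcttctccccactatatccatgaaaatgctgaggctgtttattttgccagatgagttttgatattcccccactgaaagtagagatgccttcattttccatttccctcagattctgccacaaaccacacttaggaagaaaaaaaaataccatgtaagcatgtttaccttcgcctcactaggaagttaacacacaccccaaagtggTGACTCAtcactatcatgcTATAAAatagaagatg
Mmp3 (chr9:7445572-7445821): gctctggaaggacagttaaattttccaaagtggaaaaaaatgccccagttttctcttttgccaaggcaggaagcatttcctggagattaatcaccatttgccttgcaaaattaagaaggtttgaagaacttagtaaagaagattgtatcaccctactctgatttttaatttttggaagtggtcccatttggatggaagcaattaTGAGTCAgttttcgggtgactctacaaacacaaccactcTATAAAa
Mmp7 (chr9:7691840-7692089): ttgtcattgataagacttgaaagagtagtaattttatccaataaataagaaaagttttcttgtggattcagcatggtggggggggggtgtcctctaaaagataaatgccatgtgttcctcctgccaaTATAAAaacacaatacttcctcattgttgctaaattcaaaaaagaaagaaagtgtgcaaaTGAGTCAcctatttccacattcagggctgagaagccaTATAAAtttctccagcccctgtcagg
Mmp14 (chr14:54431348-54431597): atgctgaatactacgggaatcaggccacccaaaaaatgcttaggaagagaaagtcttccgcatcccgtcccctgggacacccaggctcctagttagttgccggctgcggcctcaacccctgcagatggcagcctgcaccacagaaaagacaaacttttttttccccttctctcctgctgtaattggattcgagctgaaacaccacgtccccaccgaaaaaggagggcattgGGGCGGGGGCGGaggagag
Timp3 (chr10:86300162-86300411): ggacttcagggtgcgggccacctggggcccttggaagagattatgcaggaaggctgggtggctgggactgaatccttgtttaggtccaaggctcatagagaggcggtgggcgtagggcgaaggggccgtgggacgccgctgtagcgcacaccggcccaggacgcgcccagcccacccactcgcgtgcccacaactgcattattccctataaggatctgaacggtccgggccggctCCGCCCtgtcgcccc

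The motif TGANTCA, read by AP-1 factors in many stimulus-responsive genes, began 35 bases before the start in Mmp13, 46 in Mmp3 and 63 in Mmp7, and it was not in the Mmp14 or Timp3 stretch. Over windows of 300 bases, 250 before to 50 after the start, it was in 13 of the 59 windows of 54 members (22.0%), against 7.81% of 32851 windows of all genes. The cluster genes without it were Mmp8 and Mmp27, and a second Mmp7 window, from another transcript start, lacked it as well. Of the 44 members outside the cluster with a window, 5 had the motif. The GC box was in 45.8% of member windows, against 35.7% of all windows, and the TATA box in 27.1%, against 13.6%. A match describes letters only, and binding was not measured.

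In the cluster, Mmp13, the collagenase of rodents, had 0.0600, 0.427, 0.0624, 0.494 and 0.357 CPM in tg1 to tg5, against 1.11, 1.12, 0.709, 1.07 and 1.74 CPM in WT1 to WT5. It was rare in every library, its groups did not overlap, and it fell (log2 -1.95, SE 0.49, adjusted p = 0.0165). Mmp3, stromelysin 1, had 2.10, 1.04, 1.06, 0.494 and 0.536 CPM in tg1 to tg5, against 2.88, 1.41, 1.71, 1.58 and 1.07 CPM in WT1 to WT5. The groups overlapped and it was not called (log2 -0.68, SE 0.43, adjusted p = 0.261). Mmp7, a protease of gland and duct epithelium, had 0 counts in tg1, tg3, tg4, tg5 and WT1, but 127 CPM in tg2 and 65.0, 64.6, 55.5 and 29.4 CPM in WT2 to WT5. These are the 5 libraries with high duct RNA, and Mmp7 was not called between the genotypes (adjusted p = 0.75). Mmp12, the metalloelastase of macrophages, had 0.900, 29.0, 3.18, 10.8 and 5.30 CPM in tg1 to tg5, against 5.43, 6.19, 6.80, 14.1 and 7.47 CPM in WT1 to WT5. It was highest in tg2 and lowest in tg1 and was not called (adjusted p = 0.745). Stromelysin 3 (Mmp11), which lies on another chromosome, was not called (adjusted p = 0.677) and overlaps Chchd10, and Mmp8 and Mmp10 were below the filter.

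Of the 4 inhibitors, 2 rose and 2 did not pass the test. Timp3 (ENSMUSG00000020044, chromosome 10, 86136236 to 86185370, plus strand), the inhibitor that binds to matrix and also blocks ADAM17 and several ADAMTS enzymes, had 503, 518, 378, 367 and 616 CPM in tg1 to tg5, against 263, 299, 286, 309 and 300.1 CPM in WT1 to WT5. The lowest transgenic library, tg4, was above the highest WT library, and Timp3 rose 1.70-fold (log2 0.77, SE 0.12, adjusted p = 0.00226). Timp4 (ENSMUSG00000030317, chromosome 6, 115218853 to 115229166, minus strand), an inhibitor found mainly in heart and fat, had 451, 344, 440.1, 446 and 390.4 CPM in tg1 to tg5, against 237, 126, 260.0, 278 and 243 CPM in WT1 to WT5. WT2 was far below the other WT libraries, and the groups did not overlap (log2 0.92, SE 0.20, adjusted p = 0.00872).

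Timp2, which takes part in the activation of pro-MMP2 by MMP14, had 441, 415, 264, 218 and 391 CPM in tg1 to tg5, against 396, 411, 432, 429 and 418 CPM in WT1 to WT5. The WT values lay within a narrow band, while tg3 and tg4 were well below the other transgenic libraries, and Timp2 was not called (log2 -0.22, SE 0.16, adjusted p = 0.333). Timp1, an inhibitor induced in inflamed and fibrotic tissue, was rare, with 1.38, 1.40, 2.68, 0.604 and 1.37 CPM in tg1 to tg5, against 2.10, 2.93, 2.42, 2.03 and 1.29 CPM in WT1 to WT5. The groups overlapped (log2 -0.46, SE 0.36, adjusted p = 0.373), and the gene overlaps Syn1, which is on the opposite strand. Per length, the mean of Timp3 was 58.5 FPKM in aADM2-tg and 35.8 FPKM in WT and that of Timp4 was 70.3 FPKM in aADM2-tg and 38.8 FPKM in WT, beside 88.7 FPKM in aADM2-tg and 107 FPKM in WT for Timp2. Summed over the 4 inhibitors, RNA was at 1032 to 1399 CPM in aADM2-tg and 839 to 1018 CPM in WT.

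The 21 testis ADAM genes, which serve sperm maturation and binding to the egg, were read mainly in WT2, WT3 and WT5. Each of the 21 was higher in each of these 3 libraries than in all of the other 7. For Adam1a the margin was small, with 5.73 CPM in WT5 and 5.71 CPM in tg4. Adam1a and Adam4 were read in every library, and Adam4 was at 0.549 to 1.19 CPM in aADM2-tg and 0.554 to 1.83 CPM in WT. Summed over all 21 testis genes, RNA was at 4.37 to 8.66 CPM in aADM2-tg, and at 5.59, 55.7, 58.4, 9.43 and 59.3 CPM in WT1 to WT5. Summed male germ cell markers were at 9.42 to 32.0 CPM in aADM2-tg, and at 10.9, 303, 276, 26.5 and 321 CPM in WT1 to WT5. Of the 21, 10 had 0 counts in all transgenic libraries, and 17 did not pass the expression filter.

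By total count the leading 4 were Adam1a, Adam5, Adam3 and Adam32. Adam5 had 0.0600, 0.610, 0.187, 0.220 and 0.179 CPM in tg1 to tg5, against 0.775, 13.7, 11.3, 1.86 and 12.8 CPM in WT1 to WT5. The groups did not overlap, and WT1 and WT4 were also above each transgenic library. Adam5 fell (log2 -4.90, SE 0.85, adjusted p = 0.00357). Adam32 had 0.120, 0.671, 0, 0.110 and 0.119 CPM in tg1 to tg5, against 0.0554, 5.85, 6.09, 1.07 and 8.26 CPM in WT1 to WT5, with WT1 below tg1, tg2, tg4 and tg5 (log2 -4.29, SE 1.08, adjusted p = 0.0161). Adam3, the gene of cyritestin, did not pass the expression filter and had 0.0600, 0.549, 0, 0.384 and 0.0596 CPM in tg1 to tg5, against 0.277, 9.56, 12.4, 0.677 and 9.16 CPM in WT1 to WT5. Adam1a, a fertilin subunit, had 3.36, 5.49, 2.56, 5.71 and 4.41 CPM in tg1 to tg5, against 3.21, 5.96, 6.15, 4.29 and 5.73 CPM in WT1 to WT5 and was not called (adjusted p = 0.618). It overlaps Tmem116 and Gm42878. The part of germ cell RNA in the calls of Adam5 and Adam32 was not tested.

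**Figure D3:**
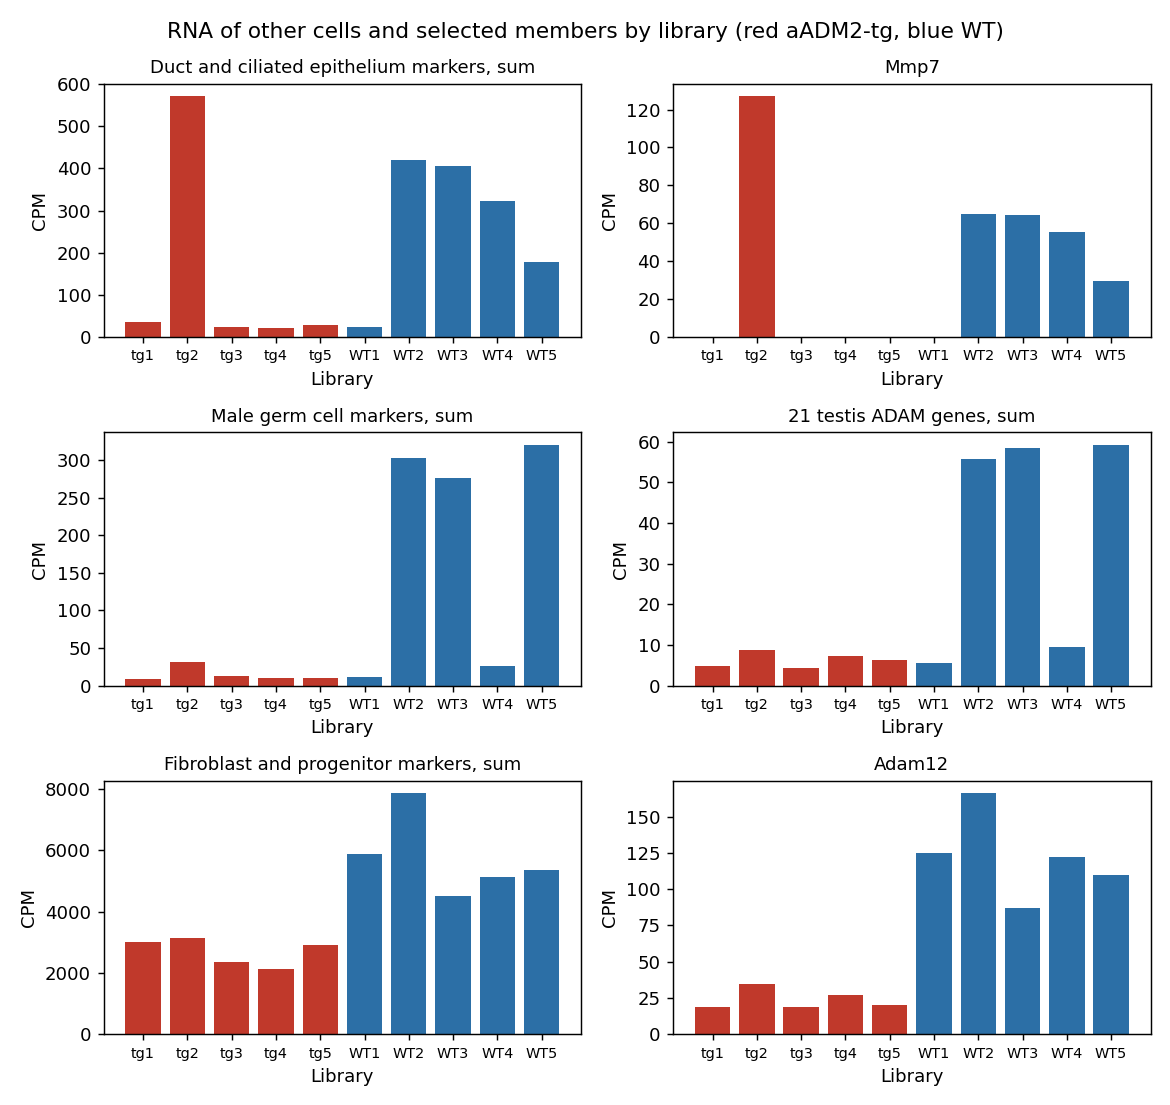
CPM in each of the 10 libraries (bars, red aADM2-tg, blue WT) for summed markers in the left column and for members in the right column. Mmp7 is read in the libraries with duct RNA (tg2 and WT2 to WT5), the 21 testis ADAM genes reach 55.7 to 59.3 CPM in 3 WT libraries (WT2, WT3, WT5), where germ cell markers reach 276 to 321 CPM, and Adam12 and the fibroblast and progenitor markers are lower in all 5 aADM2-tg libraries.

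Of the 18 called members outside the testis class, 14 kept their call with the duct score, the mean log2 CPM of the 22 duct markers, as a term beside genotype (3 higher and 11 lower; with the testis genes 13 lower). Over all tested genes 5.91% were then higher and 8.78% lower. Adam12 was at -2.20 (adjusted p = 0.000414), Adamts12 at -1.63 (adjusted p = 0.00147), Mmp2 at -1.12 (adjusted p = 0.0061), Timp3 at 0.82 (adjusted p = 0.00341) and Timp4 at 0.73 (adjusted p = 0.0324) on the log2 scale. With a gene length offset added, 3 members were higher and 10 lower, against 6.3% and 6.44% of all tested genes. In the 5 libraries low in duct RNA (tg1, tg3, tg4 and tg5 against WT1) 2 members, Adam12 (-2.59, adjusted p = 0.0075) and Adamts12 (-2.12, adjusted p = 0.0075), fell, against 0.195% of all tested genes, and 0 rose, against 0.00574%. At an unadjusted p under 0.05, 14 of 55 tested members were lower there (25.5%), against 9.8% of all tested genes, and 5 were higher (9.09%), against 4.96%. In the 5 libraries high in duct RNA (tg2 against WT2 to WT5) 0 members passed the test in edgeR, where 1 of 19207 genes did (0.00521%, higher). At an unadjusted p under 0.05, 17 of 71 tested members were lower there (23.9%), against 9.54% of all tested genes, and 4 were higher (5.63%), against 6.57%. The members tested in both subsets include testis ADAM genes. In the high subset more of them were tested, such as Adam2 and Adam3, which did not pass the filter with all 10 libraries. The testis class was read mainly in WT2, WT3 and WT5, which are all in that subset. The share of lower members there is therefore not that of members outside the testis class, and the part of germ cell RNA in it was not tested. In both subsets the lone library is assumed to vary like the others, and all 18 called members outside the testis class kept the sign of their change.

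**Figure D4:**
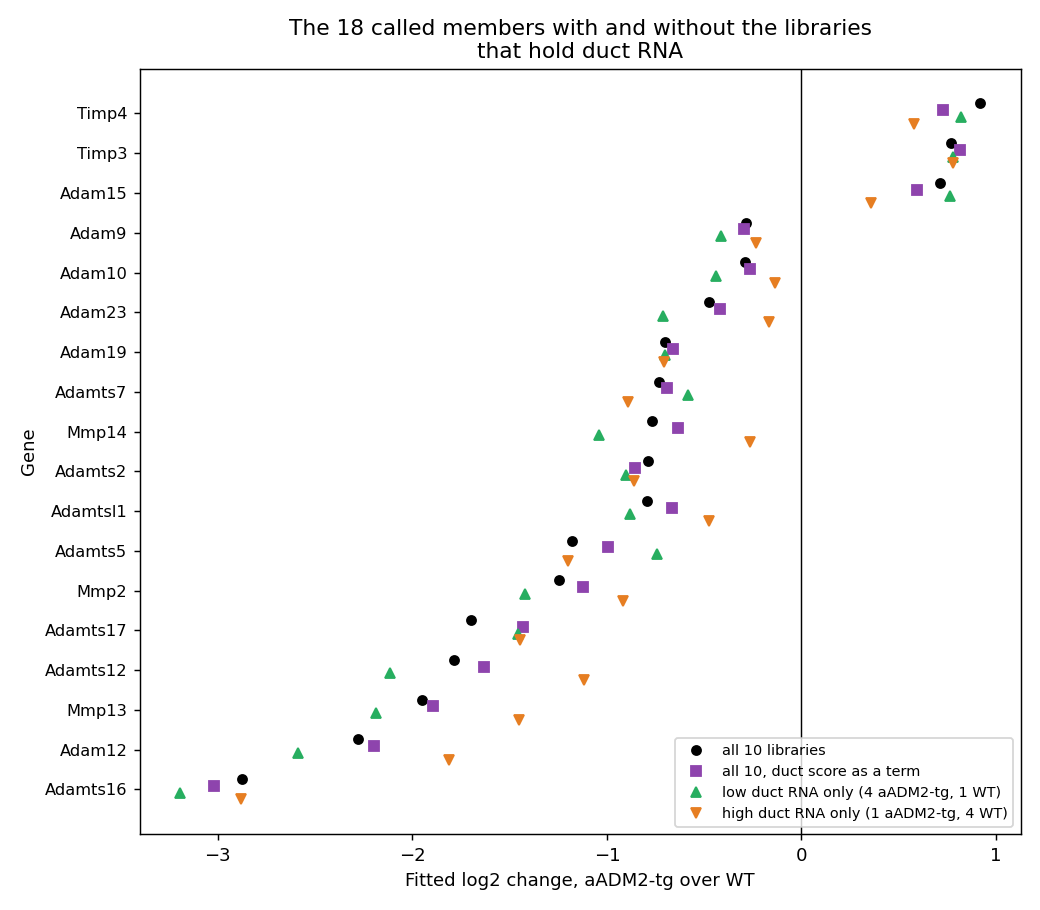
Fitted log2 change of aADM2-tg over WT for the 18 called members outside the testis class with all 10 libraries (black), with the duct score as a term (purple), in the libraries low in duct RNA (green, 4 aADM2-tg and 1 WT) and in those high in it (orange, 1 aADM2-tg and 4 WT). No point of these genes crosses 0; Mmp14 is at -0.77 with all libraries, at -1.04 in the low subset and at -0.27 in the high subset.

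Among fibroblast and progenitor markers, 5 of 10 were lower (Pdgfra, Pi16, Lum, Col1a1 and Col3a1), 1 was higher (Ly6a) and 4 were not called. The sum over the 10 markers did not overlap between the groups, and their part in the changes of Adam12, Adamts2, Adamts12, Mmp2 and Mmp14 was not tested. Of macrophage markers 3 of 10 were lower (Adgre1, Csf1r and Mrc1). Of adipocyte markers 6 of 10 were higher and 4 not called, and 1 of the 10 was higher with the duct score as a term. Endothelial markers had 2 of 8 higher and 6 not called, and 0 higher with the duct score as a term. The part of either cell type in the rises of Adam15, Timp3 and Timp4 was not tested. Over all tested genes 12.7% were lower and 13.8% higher, and 5.91% were higher with the duct score as a term.

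The counts of the regulator and substrate lists that follow stand beside 13.8% of all tested genes higher and 12.7% lower, and these lists were not tested as sets. Of 9 tested inhibitors and clearance genes 2 rose and 2 fell. Reck, a membrane-anchored inhibitor of MMPs, was at 8.29 to 13.9 CPM in aADM2-tg, against 16.5 to 20.6 CPM in WT, and fell (log2 -0.61, adjusted p = 0.00727). Lrp1, a receptor that clears MMPs and TIMPs, was at 456 to 736 CPM in aADM2-tg, against 737 to 819 CPM in WT, and fell (log2 -0.33, adjusted p = 0.045), a call that ended with the duct score as a term (adjusted p = 0.0728). Serpine2, protease nexin 1, rose by 0.57 on the log2 scale (adjusted p = 0.0124).

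Of 13 tested activators and partners 1 rose and 2 fell. Furin, the convertase that removes the prodomains of many ADAMs, ADAMTSs and membrane-type MMPs, was at 43.4 to 60.1 CPM in aADM2-tg, against 60.1 to 77.4 CPM in WT (log2 -0.39, adjusted p = 0.00568), and the related convertase Pcsk5 was at 22.8 to 36.6 CPM in aADM2-tg, against 45.1 to 54.8 CPM in WT (log2 -0.69, adjusted p = 0.00357). Bsg, basigin, a surface protein known as an inducer of MMPs, rose (log2 0.29, adjusted p = 0.0281), and with the duct score as a term it was not called. Of 13 tested other extracellular proteases 6 fell and 1 rose. Of those that fell, Tll1 encodes a procollagen C-proteinase (log2 -1.02, adjusted p = 0.00592), Mme a membrane peptidase (log2 -0.89, adjusted p = 0.00445) and Ctsk cathepsin K (log2 -0.68, adjusted p = 0.00974). The procollagen C-proteinase Bmp1 fell as well (log2 -0.44, adjusted p = 0.0122).

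Of 12 tested matrix substrates 5 fell and 1 rose. Versican, Vcan, the substrate of the hyalectanases, was at 18.1 to 37.1 CPM in aADM2-tg, against 45.4 to 71.2 CPM in WT, and fell (log2 -0.86, adjusted p = 0.00799). The fibrillin genes Fbn1 (log2 -1.43, adjusted p = 0.00547) and Fbn2 (log2 -3.40, adjusted p = 0.00377) and the collagen crosslinking enzyme Lox (log2 -0.93, adjusted p = 0.00139) fell too. Of 19 tested proteins shed from the membrane 4 fell and 15 did not pass the test. Those that fell were the hepatocyte growth factor receptor Met (log2 -0.48, adjusted p = 0.00657), the Notch ligand Jag1 (log2 -0.37, adjusted p = 0.0106), the receptor Notch2 (log2 -0.37, adjusted p = 0.0191) and the stem cell factor gene Kitl (log2 -0.35, adjusted p = 0.0189). With the duct score as a term the counts of higher and lower genes were 1 and 1 for inhibitors, 0 and 2 for activators, 0 and 5 for other proteases, 0 and 4 for matrix substrates and 0 and 2 for shed proteins.

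The transgenic libraries varied more among themselves than the WT libraries. The median coefficient of variation of CPM over the 52 tested members outside the testis class was 35.4% in aADM2-tg and 18.8% in WT, and it was larger in aADM2-tg for 47 of the 52. The widest were Mmp7 (224%), Mmp12 (115%) and Adamts1 (106%) in aADM2-tg. Within the transgenic group tg5 was the highest library for 17 of the 52 members, and tg3 and tg4 were the lowest for 19 and 18. Within WT, WT2 was the highest for 22. Epididymal markers summed to 256 CPM in tg5 and 207 CPM in WT3, and to at most 10.6 CPM in the other 8 libraries, and their part in the high values of Adamts1 and Mmp9 in tg5 was not tested.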

How the data were processed

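Counts per gene of 10 libraries, 1 per mouse, were analysed. The deposited table holds raw read counts, which the authors made from poly(A) RNA-seq. HISAT2 2.2.1 and HTSeq 0.6.1 are named in the submitters' processing notes, and neither genome build nor strand counting is given in the sources used here. Without it, reads of overlapping antisense genes cannot be told apart. Per the labels, groups were aADM2-tg and WT. The columns of tg3, tg4 and tg5 were assigned to their group, not to single samples. A further 10 columns of per-sample FPKM were not used.

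In R 4.3.3, genes were filtered by filterByExpr, scaled by TMM and tested with edgeR 4.0.16 (quasi-likelihood, genotype as the only term), with Benjamini-Hochberg adjustment over 16591 genes and a threshold of 0.05. CPM are counts per 1e6 counted reads, and FPKM were computed from counts and exonic lengths. The duct score is the mean log2 CPM (prior count 2) of 22 markers. Alternatives were DESeq2 size factors, DESeq2 1.42.0, voom with quality weights and limma-trend on log2 of FPKM plus 1 (limma 3.58.1), no filter, a mean of 10 CPM, a gene length offset (loess, span 0.3), the replicate number as a block, the duct score, subsets by duct RNA, and each library left out. The duct score with the length offset was chosen after seeing the data. The method was tested on simulated data. Promoter windows come from RefSeq (GRCm38.p6), and 54 of 84 members had one. Members, role classes and lists were chosen with earlier results of these data known.

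Given with the value of every library were the TIMPs, the called members with a mean of at least 1 CPM in the higher group, a fixed set of well-known proteases and the 4 leading testis genes. Mmp7 and Mmp12 were added to these after their values were seen. A called gene of the inhibitor list is not reported here by name. Adam6a and Adam6b, Adam26a and Adam26b, Adam1a and Adam1b, and Mmp1a and Mmp1b are pairs of related genes, and whether they share reads was not tested. Limits from counts cover counting error only, since reads are not independent molecules. Plots used Python 3.11.15 and matplotlib 3.10.9.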

Additional observations from a re-analysis of the deposited data

Results flagged for a closer look

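A value is given here when its distance to the next library of the same genotype, as a share of the whole range of those 5, exceeded the 95% limit of Dixon's test. Chance does this in about 1 in 20 groups, and 7 of 58 groups of named members were listed. In aADM2-tg, Adamts12 was at 106 CPM in tg2 (45.7 to 60.3 CPM in the other 4), Adam32 at 0.671 CPM in tg2 (0 to 0.12 CPM), Adamts1 at 462 CPM in tg5 (55.7 to 114 CPM) and Mmp9 at 27.1 CPM in tg5 (4.80 to 8.67 CPM). Among WT libraries all 3 listed values were in WT2, where Timp4 was at 126 CPM (237 to 278 CPM in the other 4), Adam10 at 136 CPM (103 to 111 CPM) and Adamtsl1 at 19.9 CPM (13.1 to 14.7 CPM). WT2 also held the highest sum of fibroblast and progenitor markers (7854 CPM), and tg2 was the transgenic library with high duct RNA. The part of either in these values was not tested.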

How the results depend on the processing

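None of the 20 called members reversed under any alternative run, and 12 of them kept their call under every one that could test them, the 2 subsets by duct RNA aside. Members higher numbered 5 with voom quality weights and without WT1 and tg2, and 0 in each of the low and high duct subsets. Leaving out 1 library gave 3 to 5 higher (5 without tg2) and 15 to 22 lower. Members lower numbered 31 in DESeq2 (3068 of all genes) and 32 with no filter (2305 of all genes), where 81 were tested and the added calls were testis ADAMs and Mmp16, 10 with the duct score and length offset, 2 in the low duct subset and 0 in the high. Over all genes, higher were 980 with the duct score, 1046 with the length offset added, 1 in each subset and 1370 to 3050 with 1 library left out (1370, 1505, 1518 and 1515 without WT2, WT3, WT4 and WT5). Lower were 1069 with duct score and length offset, 34 and 0 in the low and high subsets, 3622 without WT1 and tg2, and 1609 to 3629 with 1 library left out (3629 without tg2). The median of all genes moved to -0.128 in DESeq2 and -0.108 with no filter, where more genes were tested. The replicate block, by the numbers in the column names, gave 3 higher and 19 lower. Correlations of same-numbered deviations (0.489, 0.671, -0.375, -0.254 and 0.0397) did not show that the numbers pair the libraries.

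Changes that turned sign were all of genes not called. Adamts1 was at -0.38 with voom, -0.21 with limma-trend, -0.20 with the replicate block, -0.58 in the high duct subset and -0.65 to 0.454 with 1 library left out (-0.65 without tg5). Mmp9 was at -0.38 in that subset and -0.13 to 0.695 with 1 library left out (-0.13 without tg5), and Adamts4 at 0.0764 in it. Adam1a was at 0.0746 with the duct score, 0.0425 with the length offset added and 0.27 in the low duct subset. The calls of Adam5 and Adam32 ended with voom (adjusted p = 0.088 and 0.142), and that of Adam32 with duct score and length offset (adjusted p = 0.0504). Adam17 was called lower with limma-trend, the 10 CPM filter and the replicate block (adjusted p = 0.0475, 0.043 and 0.0495). Causes were not tested. At this depth genes under 1 CPM, such as Mmp13, rest on few reads.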
